A study of Mus musculus with 10 samples.

Results

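MHC class II antigen presentation was followed through 8 genes, Ciita, H2-Aa, H2-Ab1, H2-Eb1, H2-DMa, H2-DMb1, Cd74 and Ctss, which were found by symbol among the 23969 symbols of the deposited FPKM table. FPKM is a count of fragments relative to transcript length and to the total of the library. Each of the 8 symbols stood on 1 row, and all 8 passed the filter on low values (2 or more libraries with an FPKM of 1 or more), as did 11454 symbols in all. The libraries were bulk RNA sequencing of cells sorted as GFP-positive from the proximal jejunum of Lgr5-eGFP-IRES-CreER mice, a knock-in line that reports Lgr5, a gene of crypt base stem cells. All mice, controls included, had been injected intravenously with an adenovirus. The groups were Rspo1 (AdRspo1, labelled Rspo GOF, 3 libraries), LGR5-ECD (AdLGR5 ECD, labelled Rspo LOF, 3 libraries) and Fc control (AdFc, 2 libraries). Rspo1 is an R-spondin, a secreted protein that strengthens Wnt signalling, and LGR5-ECD is the extracellular domain of the R-spondin receptor LGR5. The labels give no age, sex, strain or time after injection. The names of the 2 control columns carry a number but no sort, and each number stands in the title of a GFP-positive and of a GFP-negative sample. They were taken to be GFP-positive Fc cells, and each value given for the control depends on this. GFP-negative control samples were not analysed here.

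MHC class II molecules present peptides from endosomes to CD4+ T cells. An alpha and a beta chain assemble on the invariant chain (Cd74), endosomal proteases such as cathepsin S (Ctss) trim that chain, and the DM heterodimer (H2-DMa with H2-DMb1) exchanges the remaining fragment for peptide. Ciita encodes the transactivator that switches on the set, by binding a complex that sits on the X and Y boxes of class II promoters, and its own transcription is induced by interferon gamma in many cells. Dendritic cells, macrophages and B cells are the classical users of the pathway, and epithelial cells of the small intestine, Lgr5+ stem cells included, are also known to transcribe it.

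The X and Y boxes were looked for in the promoters. RefSeq promoters (GRCm38.p6) were at hand for 5 of the 8 genes, H2-Aa, H2-Eb1, H2-DMa, H2-DMb1 and Ctss. The 120 bases before the transcription start of 4 of them are printed here. They were chosen because H2-Eb1 changed between groups while H2-Aa and H2-DMb1 did not pass the test, and Ctss held no match to the class II box letters. Capitals mark matches to the letters TGATTGG (Y box), GNAAC, any 3 bases and TGA (X box), TGACGTCA (X2 element) or GAAA, any 2 bases and GAAA (interferon-stimulated response element, ISRE), searched on both strands. No base was shared between matches.
H2-Eb1, chr17:34305747-34305866, plus strand: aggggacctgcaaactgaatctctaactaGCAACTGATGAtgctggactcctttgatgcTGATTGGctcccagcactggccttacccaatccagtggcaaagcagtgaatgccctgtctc
H2-DMb1, chr17:34153071-34153190, plus strand: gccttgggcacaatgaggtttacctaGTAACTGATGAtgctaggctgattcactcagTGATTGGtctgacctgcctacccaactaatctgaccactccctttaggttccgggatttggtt
H2-Aa, chr17:34287824-34287943, minus strand: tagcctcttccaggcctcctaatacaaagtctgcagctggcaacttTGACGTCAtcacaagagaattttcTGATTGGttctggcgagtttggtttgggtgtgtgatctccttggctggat
Ctss, chr3:95526666-95526785, plus strand: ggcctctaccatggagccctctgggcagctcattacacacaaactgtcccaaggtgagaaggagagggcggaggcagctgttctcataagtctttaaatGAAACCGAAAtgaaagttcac

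The H2-Eb1 and H2-DMb1 promoters held an X box followed by a Y box, at 91 to 81 and 61 to 55 bases before the start in H2-Eb1 and at 94 to 84 and 63 to 57 bases before it in H2-DMb1. H2-Aa held the Y box at 50 to 44 bases and an X2 element at 74 to 67 bases before its start. In H2-Aa the letters gcaac stood just before that element, with fewer than the 3 spacer bases that the X box search required. Ctss held no match to the X box, Y box or X2 letters and had an ISRE at 21 to 12 bases before its start. Neither of the 2 H2-DMa promoters in the table held any of these letters, nor those of the gamma-activated site TTCNNNGAA, in the 250 bases before the start. Over all 32851 promoters of the table, the same 250 bases held a Y box in 7.23%, an X box in 2.66%, both in 0.265%, an X2 element in 1.55%, an ISRE in 2.98% and the gamma-activated site in 7.02%. The letters of all motifs were chosen after these promoters had been read, and a match is a description of the sequence only. Only exact letters were searched, so the lack of a match does not show that a box is absent.

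The class II genes were transcribed in all 8 libraries and at very different levels per length. Cd74 was the most abundant by far and ranked between 10 and 19 among the 11454 genes in each library. H2-Ab1 ranked between 286 and 456, H2-Eb1 between 466 and 1232 and H2-Aa between 551 and 1671. The transactivator Ciita (ranks 3003 to 7749) and the protease Ctss (4273 to 7726) stood in the middle of the range.

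Markers of the classical antigen presenting cells were low or at 0 in the same libraries, with a few exceptions. Of 30 immune cell markers, 29 were in the table, 8 were listed at 0 in every library and 5 passed the filter. The 8 included Emr1 (the older symbol of the macrophage marker Adgre1), Flt3, Clec9a and Cx3cr1, markers of macrophages and dendritic cells. Other markers of such cells were above 0, Xcr1 in 8 libraries (highest value 0.816 FPKM) and Zbtb46 in 6 (0.686 FPKM), and so was the B cell gene Cd79b in 6 (1.82 FPKM). Itgam, a myeloid integrin gene, was at 0.198, 0.751 and 0.718 FPKM in Rspo1, at 0.901, 2.58 and 3.02 FPKM in LGR5-ECD and at 0.979 and 0.832 FPKM in the control. Its log2 change in Rspo1 against LGR5-ECD was -0.97 (SE 0.34, limma adjusted p = 0.109), and its part in the class II values was not tested. Ptprc, the pan-leukocyte gene, was at 0.0853, 0 and 0.0234 FPKM in Rspo1, at 0.155, 0.416 and 0.161 FPKM in LGR5-ECD and at 0.107 and 0.210 FPKM in the control. The summed level of the marker list was 18.9 to 29.0 FPKM in Rspo1, 19.7 to 29.3 FPKM in LGR5-ECD and 11.6 to 13.2 FPKM in the control. Most of that sum came from Cd14 (highest value 16.0 FPKM), Lyz2 (13.2 FPKM) and Cd68 (7.48 FPKM). Epcam, an epithelial adhesion gene, was at 135.2 to 156.3 FPKM in Rspo1, 167.5 to 172.7 FPKM in LGR5-ECD and 97.3 and 148.2 FPKM in the control.

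The first comparison set R-spondin gain of function against loss of function. The transactivator gene Ciita and the beta chain gene H2-Eb1 were higher in Rspo1 than in LGR5-ECD, while H2-Ab1 and Cd74 differed by at most 0.04 on the log2 scale. Ciita was at 14.6, 12.7 and 11.9 FPKM in Rspo1 and at 5.89, 6.09 and 3.02 FPKM in LGR5-ECD. All 3 Rspo1 libraries lay above all 3 LGR5-ECD libraries. The log2 change of Ciita was 1.27 (SE 0.25, 95% interval 0.71 to 1.83, limma adjusted p = 0.0129). Log2 changes throughout were computed on log2(FPKM + 1), so those of low genes come out too small.

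H2-Eb1 encodes the beta chain of the I-E class II molecule. It was at 71.0, 63.5 and 71.0 FPKM in Rspo1 and at 44.1, 38.2 and 34.4 FPKM in LGR5-ECD. The groups did not overlap, and the log2 change was 0.81 (SE 0.17, 95% interval 0.43 to 1.18, limma adjusted p = 0.0157). The alpha chain partner of this molecule, whose gene is a pseudogene in some mouse strains, appears in the table as H2-Ea-ps and was listed at 0 in every library.

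H2-Ab1 and H2-Aa encode the beta and alpha chains of the I-A molecule. H2-Ab1 was at 116.4, 80.5 and 120.8 FPKM in Rspo1 and at 115.8, 97.4 and 93.2 FPKM in LGR5-ECD, so the groups overlapped (log2 change 0.04, 95% interval -0.42 to 0.50, adjusted p = 0.945). H2-Aa was at 65.8, 31.1 and 48.9 FPKM in Rspo1 and at 49.2, 28.9 and 41.0 FPKM in LGR5-ECD (log2 change 0.25, 95% interval -0.40 to 0.90, adjusted p = 0.667). The interval of H2-Aa is wide enough to hold a change as large as that of H2-Eb1.

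Cd74, the invariant chain gene, was at 1208, 861 and 996 FPKM in Rspo1 and at 1028, 952 and 1019 FPKM in LGR5-ECD. The 3 LGR5-ECD values lay within the span of the Rspo1 values (log2 change 0.02, 95% interval -0.47 to 0.51, adjusted p = 0.975). Ctss was at 4.77, 3.96 and 5.98 FPKM in Rspo1 and at 6.14, 7.86 and 3.06 FPKM in LGR5-ECD (log2 change -0.12, 95% interval -0.84 to 0.60, adjusted p = 0.869).

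The 2 genes of the peptide exchange factor DM were in between. H2-DMa was at 46.1, 34.3 and 46.8 FPKM in Rspo1 and at 38.9, 30.4 and 15.9 FPKM in LGR5-ECD (log2 change 0.64 with SE 0.31 and adjusted p = 0.249). H2-DMb1 was at 31.7, 26.7 and 19.4 FPKM in Rspo1 and at 16.3, 23.9 and 9.995 FPKM in LGR5-ECD (log2 change 0.65 with SE 0.32 and adjusted p = 0.259). In both genes the groups overlapped, and the lowest value was that of LGR5-ECD replicate 3. H2-DMb2, a close copy of H2-DMb1 (94.6% identical over 1219 aligned transcript bases in GENCODE M21), was lower, at 2.90, 1.96 and 5.57 FPKM in Rspo1 and 3.01, 1.56 and 0 FPKM in LGR5-ECD, and the split of reads between the copies is uncertain. Their sum was 34.6, 28.6 and 24.9 FPKM in Rspo1 and 19.3, 25.4 and 9.995 FPKM in LGR5-ECD, and still overlapped.

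**Figure D1:**
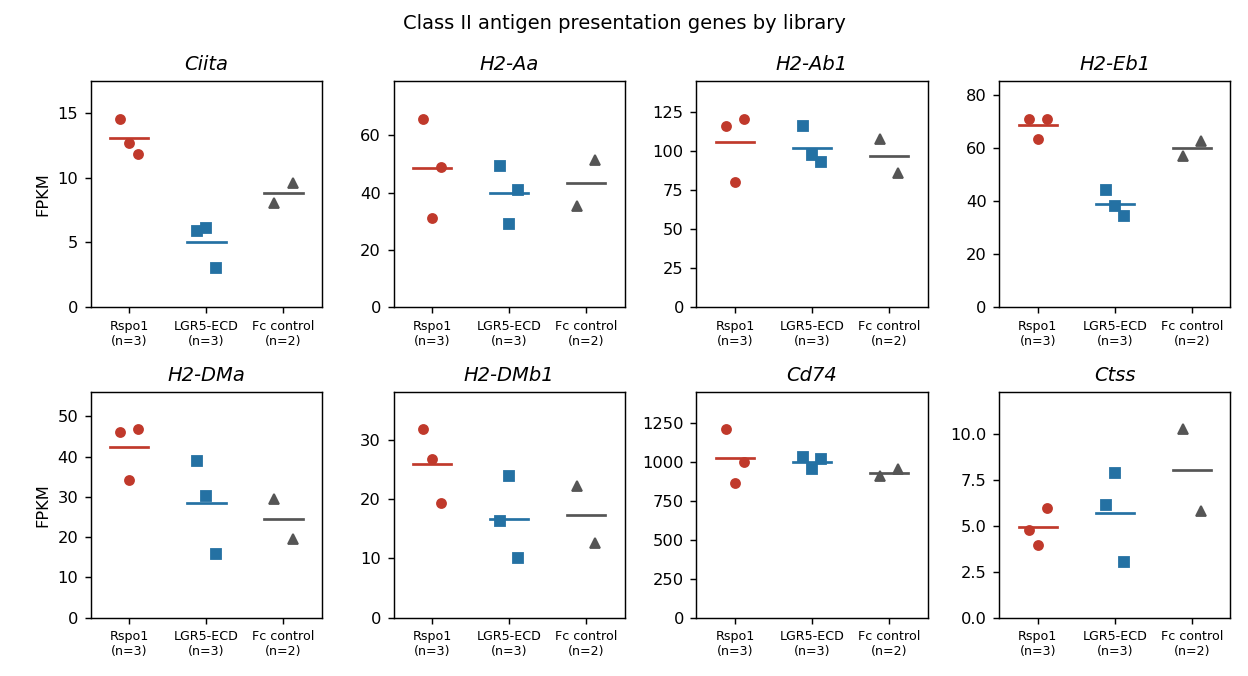
FPKM of the 8 class II genes in each library (points) with the group mean (bar), for Rspo1, LGR5-ECD and Fc control from left to right, with a separate vertical axis from 0 for each gene. Ciita and H2-Eb1 were lower in LGR5-ECD than in every library of the other groups, while Cd74 and H2-Ab1 overlapped between Rspo1 and LGR5-ECD.

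In all, 2 of 8 class II genes rose and 0 fell in Rspo1 against LGR5-ECD, where 4.92% of all genes tested were called higher, 3.54% lower and 8.45% in either direction. The members' median log2 change was 0.45, beside 0.08 over all genes tested. All 3 Rspo1 libraries lay above all LGR5-ECD libraries in 2 of 8 members, and in 18.9% of all genes. Leaving out an Rspo1 library ended 5 of the 6 calls. Without Rspo1 replicate 1 the adjusted p was 0.0598 for Ciita and 0.0634 for H2-Eb1, without replicate 2 it was 0.0572 for Ciita and 0.0558 for H2-Eb1, and without replicate 3 it was 0.0447 for Ciita and 0.0700 for H2-Eb1, while the log2 changes stayed between 1.00 and 1.43 for Ciita and between 0.72 and 0.90 for H2-Eb1 over all 15 alternatives run.

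Markers of stem cells and enterocytes also differed between these groups. Lgr5 was at 96.5, 112.7 and 100.2 FPKM in Rspo1 and at 8.31, 2.84 and 4.28 FPKM in LGR5-ECD. Olfm4, another stem cell gene, was at 1316 to 1466 FPKM in Rspo1 and 36.3 to 250.7 FPKM in LGR5-ECD. The 2 controls differed in these markers. Olfm4 was at 770.6 FPKM in control 1 and 292.4 FPKM in control 2, and the control mean of Lgr5 was 31.32 FPKM (SD 13.15). The mean log2 value of the 10 stem cell markers, relative to the control mean, was 0.49 in control 1 and -0.49 in control 2. The cause of this difference between the controls was not tested. Of 10 stem cell markers, 10 rose in Rspo1 against LGR5-ECD, beside 4.92% of all genes, and of 12 enterocyte markers 11 fell, beside 3.54%. The summed enterocyte markers were 388.3 to 448.8 FPKM in Rspo1, 1146 to 1380 FPKM in LGR5-ECD and 578 to 662 FPKM in the control. The GFP gate itself reads the Lgr5 locus, a gene that differed between the groups. In bulk libraries, fewer cells that transcribe a gene and less RNA per cell cannot be told apart, and the part of these marker differences in the changes of Ciita and H2-Eb1 was not tested.

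Ratios within a library do not depend on the scaling between libraries. They reuse the values given above. H2-Ab1 had a log2 change of 0.04 between Rspo1 and LGR5-ECD, so ratios to it largely repeat the change of the other gene. H2-Eb1 stood at 0.610, 0.789 and 0.588 times the level of H2-Ab1 in Rspo1, at 0.381, 0.392 and 0.370 times in LGR5-ECD, and at 0.531 and 0.727 times in the control. The 3 LGR5-ECD ratios were nearly equal and lay below all others. The ratio was 1.72-fold higher in Rspo1 than in LGR5-ECD (two-sided exact permutation p = 0.1, the smallest that 3 against 3 libraries allow). Ciita stood at 0.125, 0.158 and 0.0983 times H2-Ab1 in Rspo1 and at 0.0509, 0.0626 and 0.0324 times in LGR5-ECD (2.66-fold, exact permutation p = 0.1). H2-DMa relative to H2-Ab1 was 0.396, 0.426 and 0.387 in Rspo1 and 0.336, 0.312 and 0.171 in LGR5-ECD, again without overlap (1.54-fold, exact permutation p = 0.1). The share of all genes whose ratio to H2-Ab1 separates these groups was not computed.

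The alpha to beta ratio of I-A did not separate the groups. H2-Aa stood at 0.565, 0.386 and 0.405 times H2-Ab1 in Rspo1, at 0.425, 0.296 and 0.440 times in LGR5-ECD, and at 0.329 and 0.596 times in the control (Rspo1 against LGR5-ECD, exact permutation p = 0.6). Cd74 was 4.77, 4.92 and 4.14 times the sum of the 3 chain genes in Rspo1, 4.92, 5.79 and 6.04 times in LGR5-ECD, and 4.54 and 4.75 times in the control (Rspo1 against LGR5-ECD, exact permutation p = 0.2). The invariant chain gene was thus in excess over the chain genes in every library. These 5 ratios were among 9 quantities compared in this way, and with so few libraries none could pass a threshold of 0.05.

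**Figure D2:**
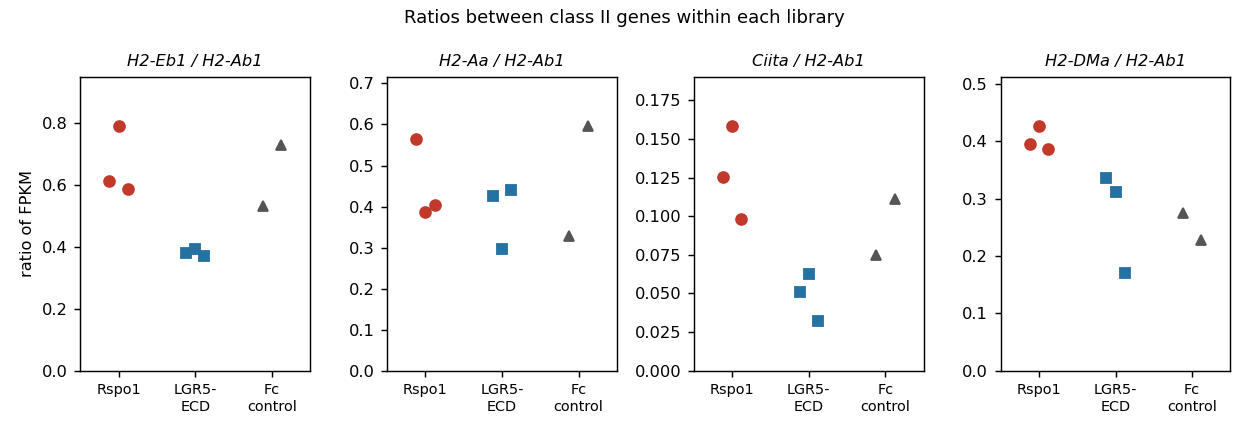
Ratio of the FPKM of H2-Eb1, H2-Aa, Ciita and H2-DMa to that of H2-Ab1 within each library (points), for Rspo1, LGR5-ECD and Fc control from left to right, with vertical axes from 0. H2-Eb1 stood at 0.370 to 0.392 times H2-Ab1 in LGR5-ECD, below the Rspo1 and control libraries, and H2-Aa relative to H2-Ab1 overlapped between all groups.

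The second comparison set R-spondin gain of function against the control virus. None of the 8 class II genes passed the test (0 called by limma, and 1 with an unadjusted p under 0.05, beside 1955 of 11454 genes), where 0.672% of all genes tested were called higher, 0.576% lower and 1.25% in either direction. The median of all genes was shifted by 0.16, and the members' median was also 0.16. Ciita was at 14.6, 12.7 and 11.9 FPKM in Rspo1 against 8.05 and 9.59 FPKM in the control, without overlap (log2 change 0.52, 95% interval -0.11 to 1.15, adjusted p = 0.380).

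H2-DMa had the lowest p of the members in this comparison. It was at 46.1, 34.3 and 46.8 FPKM in Rspo1 against 29.6 and 19.6 FPKM in the control, without overlap (log2 change 0.78, 95% interval 0.02 to 1.53, adjusted p = 0.281), or 0.62 above the median of all genes. H2-Eb1 was at 71.0, 63.5 and 71.0 FPKM in Rspo1 against 57.0 and 62.6 FPKM in the control (log2 change 0.19, 95% interval -0.23 to 0.61, adjusted p = 0.643), and that difference was 0.04 after the shift of all genes was taken off and -0.01 with quantile normalization. Higher Rspo1 values without overlap were found in 3 of 8 members, and in 26.2% of all genes.

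H2-Ab1 (control values 107.5 and 86.2 FPKM), H2-Aa (35.4 and 51.4 FPKM) and Cd74 (907 and 951 FPKM) had log2 changes of 0.11, 0.12 and 0.12, all within 0.04 of the median shift and of opposite sign under median-ratio scaling and quantile normalization. H2-DMb1 was at 22.1 and 12.7 FPKM in the control (log2 change 0.57, adjusted p = 0.445). Ctss had the only negative value, with 4.77, 3.96 and 5.98 FPKM in Rspo1 against 10.2 and 5.80 FPKM in the control (log2 change -0.58, 95% interval -1.39 to 0.23, adjusted p = 0.445).

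The third comparison set R-spondin loss of function against the control virus. Again 0 of 8 members passed (0 called by limma, and 2 with an unadjusted p under 0.05, beside 1936 of 11454 genes), where 0.445% of all genes were called higher and 0.271% lower, 0.716% in either direction, and the members' median was -0.11 beside 0.05 over all genes. H2-Eb1 was at 44.1, 38.2 and 34.4 FPKM in LGR5-ECD against 57.0 and 62.6 FPKM in the control (log2 change -0.61, 95% interval -1.03 to -0.20, adjusted p = 0.155). Ciita was at 5.89, 6.09 and 3.02 FPKM in LGR5-ECD against 8.05 and 9.59 FPKM in the control (log2 change -0.75, 95% interval -1.38 to -0.12, adjusted p = 0.229). These were the members with the 2 lowest unadjusted p-values, 0.00812 and 0.0237, and the 2 in which every LGR5-ECD library lay below both controls, as it did in 12.7% of all genes.

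The other members gave smaller values in this comparison. Log2 changes were 0.14 for H2-DMa, 0.11 for Cd74, 0.08 for H2-Ab1, -0.08 for H2-DMb1, -0.13 for H2-Aa and -0.46 for Ctss, with limma adjusted p-values of 0.551 to 0.926. With quantile normalization the 3 positive values turned negative (-0.02 for H2-DMa, -0.09 for Cd74 and -0.17 for H2-Ab1). Cd74 was the 1 member with every LGR5-ECD library above both controls, as in 18.2% of all genes. Its values were 1028, 952 and 1019 FPKM in LGR5-ECD against 907 and 951 FPKM in the control. The mean level of Ciita with its SD was 13.1 ± 1.38 FPKM in the 3 Rspo1 libraries, 5.001 ± 1.72 FPKM in the 3 LGR5-ECD libraries and 8.82 ± 1.08 FPKM in the 2 control libraries. The control mean lay between the others, and its difference from neither passed the test. Both comparisons with the control use the same 2 libraries.

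**Figure D3:**
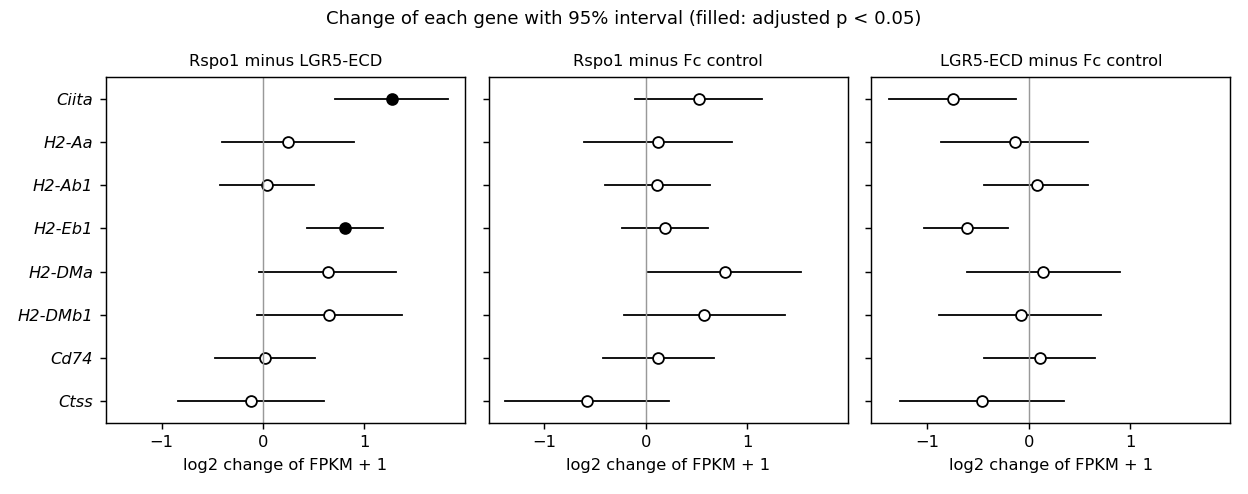
Log2 change of FPKM + 1 with its 95% interval for each class II gene in Rspo1 minus LGR5-ECD, Rspo1 minus Fc control and LGR5-ECD minus Fc control, where filled points have a limma adjusted p under 0.05. Only Ciita (1.27) and H2-Eb1 (0.81), both in Rspo1 minus LGR5-ECD, are filled.

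The genes of other class II products and of the promoter complex were counted next. Of 6 further class II genes of the locus, 5 were in the table, and H2-Eb2, H2-Ea-ps, H2-Oa and H2-Ob were listed at 0 in all 8 libraries. H2-Oa and H2-Ob encode DO, a modulator of DM found mainly in B cells. Of 9 promoter factor genes 8 were tested and 0 passed the limma test in any of the 3 comparisons. An unadjusted p under 0.05 was found for 1 of them in Rspo1 against LGR5-ECD, beside 2618 of 11454 genes. It was found for 0 in both comparisons with the control, beside 1955 genes in that of Rspo1 and 1936 in that of LGR5-ECD. Rfx5, a subunit of the complex on the X box, was at 9.25, 7.54 and 8.22 FPKM in Rspo1, at 4.95, 4.82 and 4.89 FPKM in LGR5-ECD and at 8.98 and 5.98 FPKM in the control. All Rspo1 libraries lay above all LGR5-ECD libraries, as they did in 18.9% of all genes. The log2 change of Rfx5 between these groups was 0.66 (SE 0.22, limma adjusted p = 0.0924).

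Among 12 tested genes of endosomal processing and trafficking, 1 rose and 0 fell in Rspo1 against LGR5-ECD, beside 4.92% and 3.54% of all genes. The median of the 12 was 0.21. The gene that rose was Ctsl, an endosomal cathepsin that trims the invariant chain in thymic epithelium of mice. It was at 3.50, 4.65 and 6.11 FPKM in Rspo1 and at 1.39, 1.99 and 0 FPKM in LGR5-ECD (log2 change 1.55 with SE 0.40 and adjusted p = 0.0386). The value of 0 was that of LGR5-ECD replicate 3, the library with the fewest genes above 0. Ifi30, an interferon gamma inducible thiol reductase of endosomes, was at 48.4 to 71.3 FPKM in Rspo1 and 47.8 to 92.7 FPKM in LGR5-ECD (log2 change -0.28, adjusted p = 0.563). In the comparisons with the control, 0 of the 12 passed the limma test, and 3 had an unadjusted p under 0.05 in each. Over all 11454 genes, such a p was found for 1955 in the comparison of Rspo1 and for 1936 in that of LGR5-ECD.

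Interferon genes were lower in Rspo1 in part. Of 43 tested genes of the type I interferon response, 23 fell and 0 rose in Rspo1 against LGR5-ECD (median -0.99), and 18 fell and 0 rose in Rspo1 against the control (median -1.28). Of all genes tested, 3.54% were called lower and 4.92% higher against LGR5-ECD, and 0.576% lower and 0.672% higher against the control. Log2 changes of the 43 ran from -2.32 to 0.98 against LGR5-ECD, with 2 positive. Against the control they ran from -3.62 to 0.52, with 3 positive. In the same comparisons 0 of 8 class II genes fell, with medians of 0.45 and 0.16. Oas2, an antiviral synthetase gene, was at 0.994, 0.753 and 1.42 FPKM in Rspo1, at 10.9, 8.70 and 8.06 FPKM in LGR5-ECD and at 19.1 and 30.3 FPKM in the control. Irf7, a regulator of the interferon response, was at 7.65, 7.26 and 15.3 FPKM in Rspo1, at 70.6, 48.0 and 30.5 FPKM in LGR5-ECD and at 84.9 and 78.5 FPKM in the control. The number of falling interferon genes depended on the libraries. Against LGR5-ECD it was 13 and 15 without Rspo1 replicates 2 and 3, and against the control it was 8, 7 and 10 without Rspo1 replicates 1, 2 and 3 and 5 without control 2. In Rspo1 against LGR5-ECD, 1 interferon gene was called higher with quantile normalization and 1 without LGR5-ECD replicate 1.

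Between LGR5-ECD and the control, 0 of the 43 interferon genes passed the limma test (median -0.28). An unadjusted p under 0.05 was found for 8 of the 43, beside 1936 of all 11454 genes tested. The change of the interferon genes and that of the class II genes were set side by side and no test of the difference between the lists was made.

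Interferon gamma is the classical inducer of Ciita, so its own pathway was listed separately. Of 17 tested interferon gamma induced genes, 4 fell and 0 rose in Rspo1 against LGR5-ECD (median -0.61), and 1 fell in Rspo1 against the control (median -1). Of all genes tested, 3.54% and 0.576% were called lower in these comparisons. The count against LGR5-ECD was 2 without Rspo1 replicate 2 or 3. That against the control was 0 without either control or any Rspo1 library and 5 without LGR5-ECD replicate 3. The genes that fell against LGR5-ECD included Tap1, which also stands on the class I list, and Igtp and Irgm2, which encode immunity-related GTPases (log2 changes -1.50 and -1.34, limma adjusted p = 0.0137 and 0.0377). The interferon gamma and class I lists share further genes, so their counts are not independent.

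Irf1 encodes a factor that acts on the promoter of Ciita used under interferon gamma, and it did not pass the test. It was at 35.5, 33.2 and 42.3 FPKM in Rspo1, at 45.9, 25.2 and 37.1 FPKM in LGR5-ECD and at 43.8 and 37.0 FPKM in the control (Rspo1 against LGR5-ECD, log2 change 0.07, 95% interval -0.43 to 0.57, adjusted p = 0.893). The receptor subunit genes Ifngr1 and Ifngr2 had log2 changes of 0.12 and 0.36 against LGR5-ECD (adjusted p = 0.767 and 0.393) and of 0.74 and 0.94 against the control (adjusted p = 0.133 and 0.0975).

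Class I presentation, which displays peptides from the cytosol on H2-K1 and H2-D1, fell in part. Of 18 tested class I genes, 4 fell and 0 rose in Rspo1 against LGR5-ECD (median -0.70), and 1 fell in Rspo1 against the control (median -0.41). Of all genes tested, 3.54% and 0.576% were called lower in these comparisons. Tap1, a subunit of the peptide transporter, was at 11.3, 8.64 and 14.9 FPKM in Rspo1, at 47.2, 36.6 and 26.2 FPKM in LGR5-ECD and at 40.7 and 31.4 FPKM in the control, and was the gene called in both comparisons (log2 change -1.57, adjusted p = 0.00467, and -1.58, adjusted p = 0.0315). Tap2, H2-D1 and the immunoproteasome gene Psmb8 were the others that fell against LGR5-ECD (log2 changes -1.31, -0.82 and -1.03, adjusted p = 0.0244, 0.0229 and 0.0411). The count against LGR5-ECD was 1 without LGR5-ECD replicate 1 or without Rspo1 replicate 2. The count against the control was 0 when any of 5 libraries was left out, namely either control or any Rspo1 library, and 3 without LGR5-ECD replicate 3. It was also 0 with a pseudocount of 0.1 or without a filter on low values, and 2 class I genes rose without control 1.

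Nlrc5 encodes the transactivator of class I genes and belongs to the same protein family as the product of Ciita. It was at 2.08, 0.660 and 2.31 FPKM in Rspo1, at 4.08, 3.22 and 6.74 FPKM in LGR5-ECD and at 6.61 and 10.1 FPKM in the control. All Rspo1 values lay below all others, as in 12.1% of all genes against LGR5-ECD and in 12% against the control. Neither difference of Nlrc5 passed (log2 change -1.10, SE 0.34, limma adjusted p = 0.0785 against LGR5-ECD, and -1.84, SE 0.38, adjusted p = 0.0503 against the control). Rspo1 values of Ciita lay above all others, as in 18.9% and 26.2% of all genes in the same comparisons. Against the control, Ciita did not pass (limma adjusted p = 0.380).

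**Figure D4:**
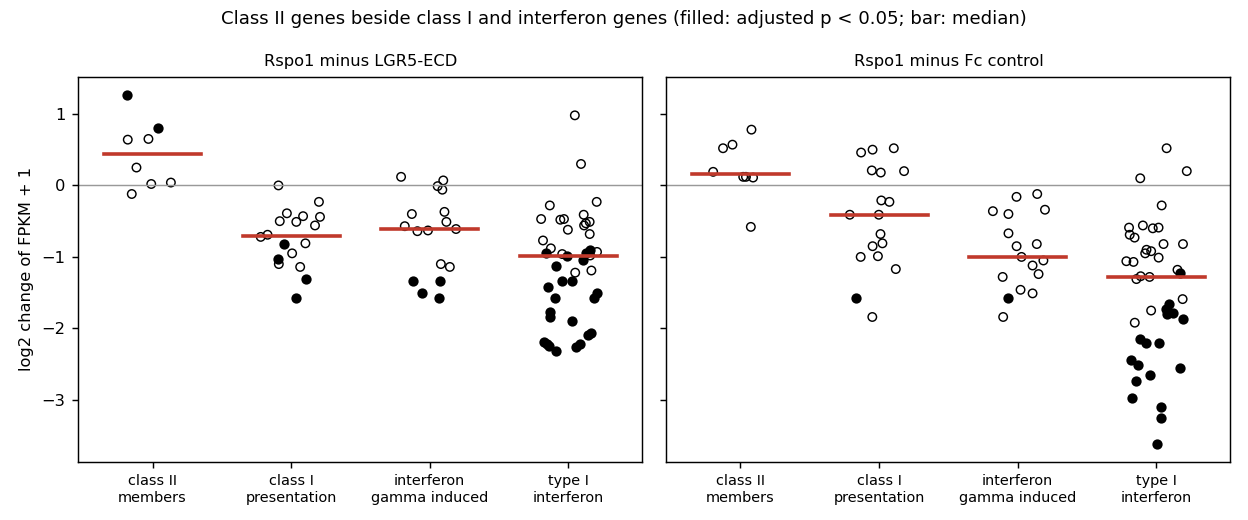
Log2 change of FPKM + 1 of each tested gene (points, filled where the limma adjusted p is under 0.05) with the list median (bar), in Rspo1 minus LGR5-ECD and Rspo1 minus Fc control. Class II medians were 0.45 and 0.16, and those of class I, interferon gamma induced and type I interferon genes lay between -0.41 and -1.28.

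Library by library, the lists took different orders. The mean log2 value of the 8 class II genes, relative to the control mean, was 0.42, 0.01 and 0.26 in Rspo1 and 0.00, -0.10 and -0.55 in LGR5-ECD. The mean of the 43 type I interferon genes was -1.56, -1.54 and -1.33 in Rspo1 and -0.12, -0.45 and -0.47 in LGR5-ECD. Rspo1 replicate 2 had the lowest class II and class I means of its group, and LGR5-ECD replicate 3 had the lowest class II mean of all libraries. LGR5-ECD replicate 3 also had the fewest genes above 0, 11485 against 13417 to 14197 in the others. Steps between low values put its depth, the lowest estimated, at about 0.525 times that of control 1. That estimate is rough, as it rests on 12 of 152 low genes, with 7 at the second commonest ratio. Read totals were unknown. Without that library the log2 change of Ciita between Rspo1 and LGR5-ECD was 1.00 and that of H2-Eb1 was 0.72, and both calls were kept.

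**Figure D5:**
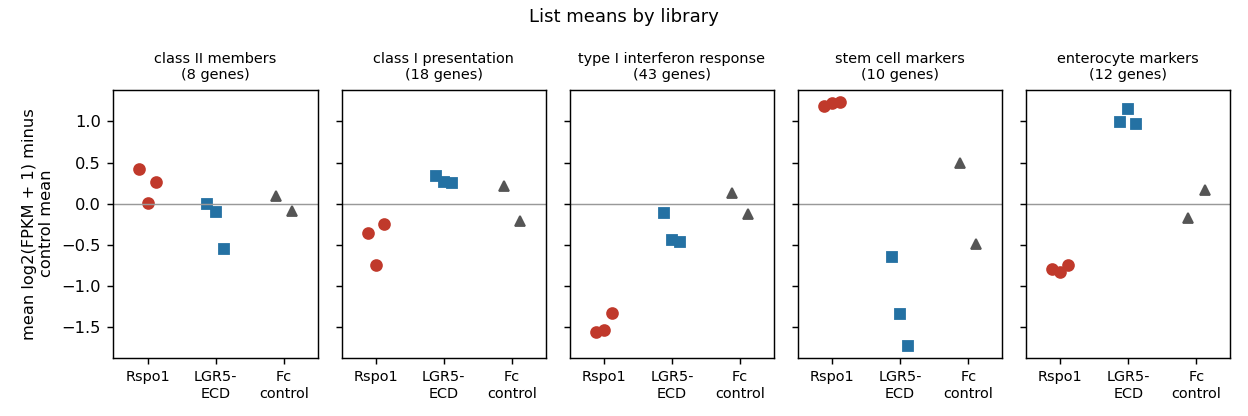
Mean log2(FPKM + 1) of each list in each library (points) minus its mean in the control, for Rspo1, LGR5-ECD and Fc control from left to right. Class II means ran from -0.55 to 0.42, type I interferon means in Rspo1 from -1.56 to -1.33, and stem cell and enterocyte means separated Rspo1 from LGR5-ECD in opposite directions.

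Genes with the most similar profiles were found by the root mean square difference of centred log2 values over the 8 libraries, among 10149 genes. For Ciita these were Natd1 (0.136), Dach1 (0.148) and Plekhm2 (0.161), beside a root mean square of 0.61 for the variation of Ciita itself. For H2-Eb1 they were Ephx1 (0.093), Chd7 (0.098) and Chd6 (0.1), beside 0.38. H2-DMa was nearest to Slc19a2 (0.142), Paics and Zc3h14 (both 0.159), and H2-DMb1 to Yes1 (0.177), Snora52 (0.178) and Med26 (0.189). For the other members the distances were 0.185 to 0.206 for H2-Aa (Mppe1, Zbtb37 and Caprin2), 0.110 to 0.120 for H2-Ab1 (Dcp1a, Arf3 and Zc3h13), 0.095 to 0.112 for Cd74 (Mafk, Tbce and Fip1l1) and 0.164 to 0.172 for Ctss (Nasp, Ccne2 and Nelfe). No class II gene was among the 3 nearest of another.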

How the data were processed

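The authors deposited FPKM values, 1 column per library, in a table of 24510 rows named by symbol. TopHat, HTSeq, DESeq2, Cufflinks and the build mm9 are named in the submitters' processing notes, but not their roles or versions. The annotation used and any strand setting were not given in the sources used here. After 27 rows with a date as symbol and 391 identical repeats were dropped, 89 symbols on several rows were summed. Columns for Rspo1 and LGR5-ECD matched single sample titles.

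The log2(FPKM + 1) values were fitted with limma 3.58.1 (trend, R 4.3.3) over all 8 libraries with 5 residual degrees of freedom, two-sided, with Benjamini-Hochberg adjustment over 11454 genes and a threshold of 0.05. The fit was also run on simulated data. There it recovered 45% of log2 changes of 1 in Rspo1 against LGR5-ECD and 25% in each comparison with the control. The simulated data had normal noise and 200 changed genes of 11454, all raised and all drawn from genes above a set mean level. These shares need not hold for lower genes or for the real data. The series text calls the replicates biological. The limma p-values set each group difference against a spread between libraries that was pooled over the groups and moderated across genes. Ratios were tested with SciPy 1.17.1 and transcripts aligned with Biopython 1.88. Counts of reads were not available, so no count test was run.

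The members and gene lists were chosen with earlier results of these data known. The rule for named genes took all 8 members, at most 4 called genes of each other list per comparison by smallest p (some of these are given as counts only), the 3 nearest profiles of each member and Lgr5, Olfm4, Irf7, Oas2 and Ptprc. A gene that the rule also names is not reported here. Rfx5, Ifi30, Irf1, Ifngr1, Ifngr2, Nlrc5, Epcam, Cd276, the other class II genes and the immune and ligand genes given were chosen after their values were seen. The coordinates are of GRCm38.p6 and not of the build the authors used. Alternatives were another pseudocount, other filters, 2 scalings, fits of 2 groups only, each library left out, and the replicate number as a block.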

Additional observations from a re-analysis of the deposited data

How the results depend on the processing

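Ciita and H2-Eb1 were called in Rspo1 against LGR5-ECD under 13 and 12 of 15 alternatives. The number of class II genes called ranged from 0 to 2 without 1 library and was 2 under all others, and in both comparisons with the control it was 0 under all 14 alternatives. The class II median of 0.16 in Rspo1 against the control was -0.02 with median-ratio scaling and -0.04 with quantile normalization.

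Small changes of sign were as follows, none past the threshold. With median-ratio scaling the log2 change was -0.04 for H2-Ab1 and -0.06 for Cd74 in Rspo1 against LGR5-ECD, -0.05 for H2-Aa, -0.06 for H2-Ab1 and -0.05 for Cd74 in Rspo1 against the control, and -0.02 for H2-Ab1 in LGR5-ECD against the control. With quantile normalization the values were -0.01 for H2-Ab1 and -0.03 for Cd74, then -0.08 for H2-Aa, -0.18 for H2-Ab1, -0.01 for H2-Eb1 and -0.12 for Cd74, then -0.17 for H2-Ab1, -0.02 for H2-DMa and -0.09 for Cd74, in the same order of comparisons. Without 1 library, values in Rspo1 against LGR5-ECD ran from -0.07 to 0.22 for H2-Ab1, -0.11 to 0.13 for Cd74 and -0.44 to 0.12 for Ctss. In Rspo1 against the control they ran from -0.14 to 0.40 for H2-Aa, -0.04 to 0.30 for H2-Ab1 and 0.00 to 0.24 for Cd74. In LGR5-ECD against the control they ran from -0.40 to 0.13 for H2-Aa, -0.08 to 0.24 for H2-Ab1, -0.14 to 0.50 for H2-DMa and -0.46 to 0.30 for H2-DMb1. The cause was not tested.

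Counts over all genes moved more. Rspo1 against LGR5-ECD gave 968 calls, and 415 to 1049 without 1 library. Rspo1 against the control gave 143, and 74 with a pseudocount of 0.1, 29 without a filter, 293 with quantile normalization, 242 in a fit of only those groups and 23 to 481 without 1 library. LGR5-ECD against the control gave 82, and 12, 4 and 4 with that pseudocount, without a filter and in a fit of only those groups, and 0 to 174 without 1 library. Type I interferon genes called lower in Rspo1 against the control numbered 5 without a filter, and 5 to 26 without 1 library. Interferon gamma induced genes called lower in that comparison numbered 0 to 6, and class I genes 0 to 5.

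The replicate block could be fitted for Rspo1 against LGR5-ECD, in the 6 libraries of these groups. It called 2 class II genes, 616 genes in all and 13 type I interferon genes, where a fit of the same 6 libraries without the block called 2, 1056 and 24. Deviations of libraries with the same number had correlations of -0.02, -0.02 and -0.05, and no library correlated best with its own number. The numbers were not taken as pairs, but with so few libraries per group this check cannot exclude pairing. No paired analysis was possible with the control because the number of each control column stands in the titles of 2 samples, 1 of each sort. Read totals are unknown, which limits the precision of low genes such as Ctss and Ciita.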

Other observations

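Costimulatory and inhibitory ligands, which decide how a T cell responds to a presented peptide, differed widely in level. Lgals9, the galectin-9 gene, was at 310.6, 315.9 and 422.3 FPKM in Rspo1, at 513.5, 457.2 and 463.0 FPKM in LGR5-ECD and at 470.8 and 234.5 FPKM in the control, and did not pass in any comparison (log2 change -0.46 in Rspo1 against LGR5-ECD, limma adjusted p = 0.342). Of 12 such genes in the table, Cd80, Cd86, Cd40 and Tnfsf4 were listed at 0 in all 8 libraries, and 5 passed the filter. Tnfrsf14, the ligand of BTLA, was at 53.5, 42.3 and 33.3 FPKM in Rspo1, at 93.0, 93.7 and 88.7 FPKM in LGR5-ECD and at 83.8 and 79.2 FPKM in the control. It fell in Rspo1 against LGR5-ECD (log2 change -1.10, SE 0.19, limma adjusted p = 0.00681), and the value against the control was -0.93 (SE 0.22, adjusted p = 0.0639). Cd276, the B7-H3 gene, had the opposite order, with 11.0, 12.1 and 17.3 FPKM in the Rspo1 libraries, 9.34, 6.83 and 4.87 FPKM in the LGR5-ECD libraries and 9.31 and 5.69 FPKM in the control, and did not pass (log2 change 0.87 against LGR5-ECD, SE 0.28, adjusted p = 0.0876).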
